A study of Homo sapiens with 8 samples.

Results

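The miRNAs described here are those detected in BT474 cells after trastuzumab or vehicle. A miRNA was counted as detected on an array where the scanner software marked it so, which in these files means that at least 1 of its probes had a signal above 3 times its own error. Of the 2006 miRNAs on the array, 221 were detected on all 4 BT474 arrays, and 287 on at least 1. A further 11 were detected on both vehicle arrays and on neither trastuzumab array, and 9 showed the opposite pattern. Near the edge of the rule, the members with the lowest detected signal were miR-200b-5p at 24.4, miR-615-3p at 29.6 and miR-542-3p at 37.5 scanner units, while the brightest miRNAs that were missed on 1 array were miR-4455, miR-3935 and miR-3196, with lowest detected signals of 188, 144 and 133.5.

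BT474 is a human breast cancer line of the luminal B type that carries the oestrogen receptor, the progesterone receptor and an excess of HER2. Trastuzumab is a humanized antibody against HER2, the receptor tyrosine kinase made from the ERBB2 gene. Cultures received trastuzumab at 6 µg/mL, or its solvent phosphate-buffered saline (PBS), over 144 h, with 2 biological replicates of each according to the methods. Total RNA was hybridized to 1-colour miRNA arrays, so in this bulk RNA fewer cells of a type and less miRNA per cell cannot be told apart. All arrays lay on 1 slide, with the PBS samples in slide row 2 and the trastuzumab samples in row 1, so treatment and slide row cannot be told apart. The data concern 1 line at 1 dose and 1 time.

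miRNAs are short RNAs cut from hairpin precursors, and each hairpin can give a 5p and a 3p product. A miRNA pairs with messenger RNAs mainly through its seed, the stretch next to its 5′ end, and lowers their translation or stability, so miRNAs with the same seed are grouped as a family. Hairpins that lie close together on 1 strand are often cut from a common transcript, and many sit inside a host gene.

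The file of BT474 PBS replicate 1 was also deposited under an SKBR3 label, with the same value in 62344 of 62344 spots. Of 43 miRNAs detected on the other 3 BT474 arrays and on none of the other 3 SKBR3 arrays, 38 were detected in this file, against 0 of 6 miRNAs with the reverse pattern. It was therefore kept under its BT474 label, and results are also given without it. The BT474 arrays detected 247 to 256 miRNAs each, with 9.41% to 9.67% of miRNA spots well above background. All 8 epithelial markers (the miR-200 family, miR-203a, miR-205-5p and miR-375) were detected on all 4 arrays. None of the haematopoietic, liver, neural or pluripotent markers was detected on any BT474 array. Of the stromal or muscle markers, 2 of 10 were detected, miR-1 and miR-133b, whose values are given below with the muscle-linked miRNAs.

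The mature sequences below are of the miRNAs that the results turn on, from RefSeq on GRCh38.p14, written 5′ to 3′ with the seed (bases 2 to 8) in capitals. A mature sequence was matched for 190 of the 221 miRNAs, 12 of them through a current name for an older one. The first set holds miRNAs that differed by over 2-fold between the treatments.
miR-4750-5p: cUCGGGCGgaggugguugagug
miR-205-5p: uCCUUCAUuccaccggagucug
miR-194-5p: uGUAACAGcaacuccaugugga
miR-7-5p: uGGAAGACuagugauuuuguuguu
miR-1281: uCGCCUCCuccucuccc
miR-6085: aAGGGGCUgggggagcaca

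The second set shows related miRNAs that lay on the same side of 0, so that the shared seed and the bases that differ can be read side by side. Over their 18 common positions miR-1268a and miR-1268b had 18 equal bases, and miR-1260a and miR-1260b had 17 of 18. In the other pairs, miR-29a-3p and miR-29c-3p had 21 of 22 bases in common, as did miR-30a-5p and miR-30e-5p. Signals of such close relatives can come in part from the same molecules, which was not tested.
miR-1268a: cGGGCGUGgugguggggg
miR-1268b: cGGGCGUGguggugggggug
miR-1260a: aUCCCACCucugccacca
miR-1260b: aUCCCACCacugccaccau
miR-29a-3p: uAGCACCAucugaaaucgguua
miR-29b-3p: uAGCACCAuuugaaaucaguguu
miR-29c-3p: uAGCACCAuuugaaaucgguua
miR-30a-5p: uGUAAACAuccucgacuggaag
miR-30c-5p: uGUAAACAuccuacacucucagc
miR-30e-5p: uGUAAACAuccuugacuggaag

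The third set is of miRNAs that were detected under 1 treatment alone, or that sit beside such a miRNA in the genome or share its seed. miR-181c-5p and miR-181d have the same seed but 11 of 22 equal positions when aligned from their 5′ ends. miR-15b-5p and miR-424-5p, which lay on opposite sides of 0, also have 1 seed in common.
miR-4728-3p: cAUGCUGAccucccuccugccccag
miR-181c-5p: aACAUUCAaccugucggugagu
miR-181d: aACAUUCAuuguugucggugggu
miR-450a-5p: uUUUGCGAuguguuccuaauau
miR-503-5p: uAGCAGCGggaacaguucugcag
miR-424-5p: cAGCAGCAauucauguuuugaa
miR-15b-5p: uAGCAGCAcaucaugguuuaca

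After quantile normalization, most of the detected miRNAs differed little between trastuzumab and PBS. This normalization gives all arrays 1 distribution and so holds the median change near 0. The median was 0.22 without normalization between arrays and -0.15 with scaling to the 75th percentile, so a shift common to all miRNAs cannot be read here. The median log2 fold change (trastuzumab over PBS) of the 221 was 0, the middle part of the distribution ran from -0.24 to 0.25 (quartiles), and 171 (77.4%) were within 1.5-fold. A miRNA was called where its change exceeded 2-fold with an unadjusted limma p under 0.05, which are the thresholds of the study. This rule called 18 of the 221 (8.14%), beside 12.5% of the 287 miRNAs tested. Of the 18, 10 were higher after trastuzumab (4.52%, beside 5.92% of all tested) and 8 lower (3.62%, beside 6.62%). After Benjamini-Hochberg adjustment over all 287, 33 of the 221 (14.9%) had an adjusted p under 0.05, beside 15.7% of all tested, with 19 higher (8.6%, beside 9.06%) and 14 lower (6.33%, beside 6.62%). Both rules were met by 13 miRNAs, 7 higher and 6 lower. Saturated spots were found in 9 of the 221, none of them called, and a change can be understated in such miRNAs.

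In all 18 called miRNAs the PBS and trastuzumab values did not overlap, the sign was the same in replicate 1 and replicate 2, and every probe with signal moved in the direction of the sum. Absence of overlap was common, since it was found in 136 of 221 miRNAs (61.5%), and it makes the sign equal in both replicates. Agreement of the probes was common too, found in 165 of the 221, and the sum is made from these same probes. These traits are therefore not separate support for the calls. Without PBS replicate 1, the file deposited under both lines, 6 miRNAs were called higher and 4 lower, and 6 passed the adjusted test. Without PBS replicate 2 the counts were 7, 6 and 6, without trastuzumab replicate 1 they were 6, 7 and 20, and without trastuzumab replicate 2 they were 6, 9 and 10. The summed signal of a miRNA takes in only the probes that are above that limit, so the number of probes in it can differ between arrays. It was the same on all 4 arrays in 193 of the 221 miRNAs, but in only 9 of the 18 called ones. In 6 of the 10 called higher more probes entered after trastuzumab, and in 3 of the 8 called lower more entered after PBS. With all probes of a miRNA summed on every array, an alternative chosen after seeing the data, all 18 kept their direction, 12 were still called, and 32 of the 33 still passed the adjusted test in limma. The calls lost were those of miR-205-5p, miR-194-5p, miR-130a-3p, miR-542-3p, miR-1281 and miR-3195.

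Scaling each array to its 75th percentile, in place of quantile normalization, called 5 higher and 14 lower and changed the share of higher miRNAs among those past the adjusted test from 57.6% to 46.7%.

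**Figure D1:**
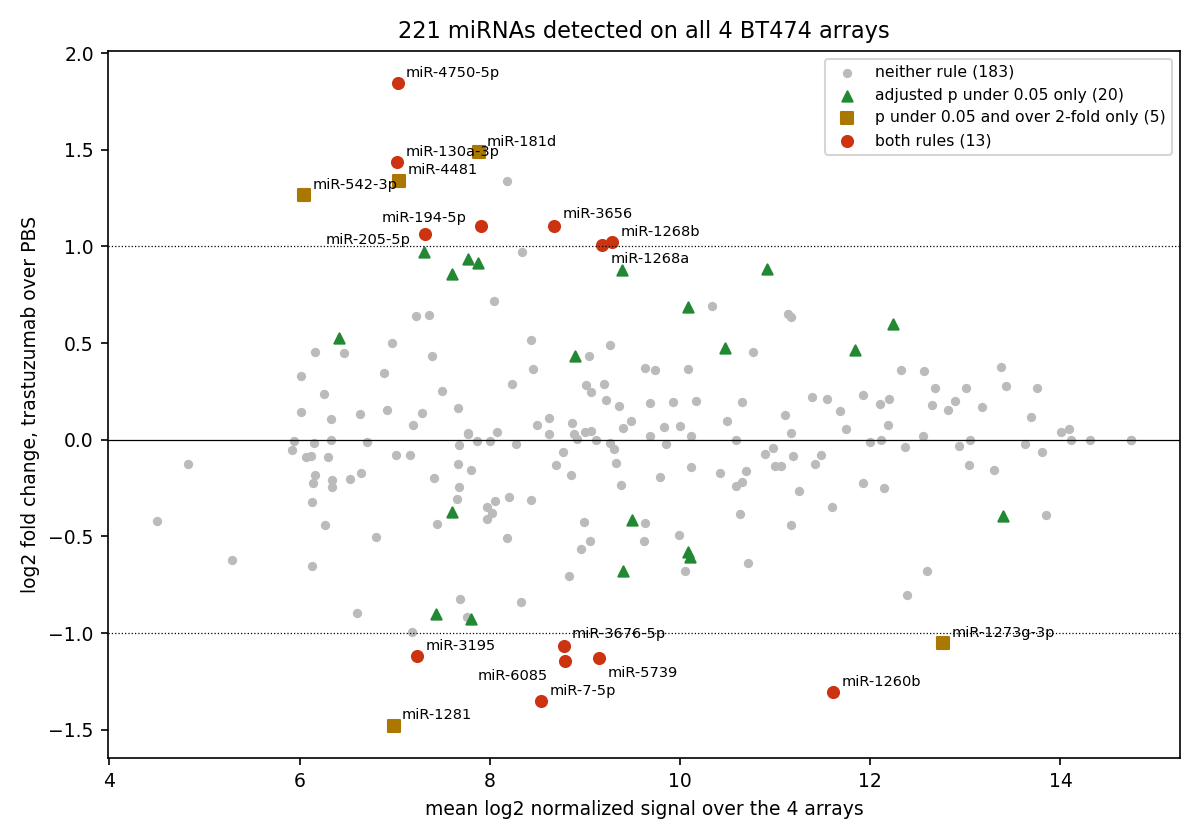
Each point is 1 of the 221 miRNAs detected on all 4 BT474 arrays. The horizontal axis gives the mean log2 normalized signal and the vertical axis the log2 fold change of trastuzumab over PBS, with dotted lines at 2-fold; symbols tell apart the 13 miRNAs that met both rules, the 5 called by the fold rule only, the 20 past the adjusted test only and the 183 that met neither. The called miRNAs reach from -1.48 (miR-1281) to 1.85 (miR-4750-5p), while most points lie close to 0.

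Among well-known miRNAs, miR-205-5p, miR-194-5p and miR-130a-3p rose after trastuzumab. miR-205-5p, an epithelial miRNA known to repress the HER family receptor HER3, has its hairpin in MIR205HG (mature sequence at chr1:209432166-209432187, GRCh38.p14, plus strand). Its normalized signal was 116 and 105 after PBS (replicates 1 and 2) and 235 and 228 after trastuzumab. Both trastuzumab values were above both PBS values by more than the spread within either treatment, a 2.09-fold difference (log2 fold change 1.07 ± 0.079 SE, limma adjusted p = 0.0206). Its sum held 1 probe on each PBS array and 2 on each trastuzumab array. With both probes on every array the signals were 175 and 154 after PBS and 239 and 226 after trastuzumab, a log2 fold change of 0.51 (limma adjusted p = 0.0529). Its call was also lost without trastuzumab replicate 1 (log2 fold change 0.94), with the 75th percentile (0.82), in the deposited values (0.55), with normexp (0.37) and in the processed spots (0.31).

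miR-130a-3p, a member of the miR-130/301 family with its hairpin in MIR130AHG, had normalized signals of 73.0 and 85.8 after PBS and 199.7 and 230.1 after trastuzumab. The groups lay far apart relative to their spread (2.71-fold higher, log2 fold change 1.44 ± 0.14 SE, limma adjusted p = 0.0317). Its call was kept without any 1 of the 4 arrays, but its sum held 1 probe on each PBS array and 2 on each trastuzumab array. With both probes on every array its log2 fold change was 0.76 (limma adjusted p = 0.0460), and it was 0.73, 0.53 and 0.52 in the deposited values, with normexp and in the processed spots, so that it was not called in these 4 alternatives. For the other detected members of its family the log2 fold changes were -0.13 for miR-130b-3p, 0.02 for miR-301a-3p and 0.19 for miR-454-3p, none with an adjusted p under 0.05.

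miR-194-5p, which is abundant in gut and liver, can come from either of 2 hairpins, beside MIR215 on chromosome 1 or beside MIR192 on chromosome 11. Its normalized signals were 149 and 181 after PBS and 356 and 349 after trastuzumab (2.15-fold, log2 fold change 1.11 ± 0.13 SE, limma adjusted p = 0.0362). Both trastuzumab arrays were higher, yet the call was kept only without PBS replicate 2, with log2 fold changes between 0.98 and 1.29 when 1 array was left out. It too had 1 probe in the sum after PBS and 2 after trastuzumab, and with both on every array its log2 fold change was 0.80 (limma adjusted p = 0.0239). Its neighbour miR-215 read 120.0 and 120.0 after PBS and 172 and 204 after trastuzumab (log2 fold change 0.64, limma adjusted p = 0.0660), and its other neighbour miR-192-5p read 469 and 465 against 496 and 651 (0.28, limma adjusted p = 0.387). The signals of the neighbours did not overlap between the treatments either, but neither passed the adjusted test.

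miR-181d and miR-542-3p were also called higher, with larger spread. For miR-181d, of a family known from blood cell development, the normalized signals were 108 and 184 after PBS and 336 and 465 after trastuzumab (2.81-fold, log2 fold change 1.49 ± 0.38 SE, limma adjusted p = 0.111). For miR-542-3p they were 48.5 and 37.3 against 120.0 and 87.2 (2.41-fold, log2 fold change 1.27 ± 0.26 SE, limma adjusted p = 0.0789). The treatments did not overlap in either miRNA, but neither adjusted p was under 0.05 and both calls were lost whichever array was left out. The sum of miR-542-3p held 1 of its 3 probes after PBS and 2 after trastuzumab; with all 3 its log2 fold change was 0.67, and it was 0.28, 0.20 and 0.17 with normexp, in the processed spots and in the deposited values. For miR-181d, with 1 probe in the sum on PBS replicate 1 alone, the sum of both probes gave 1.20. miR-101-3p, with 129.6 and 258 after PBS and 448 and 476 after trastuzumab, had a similar difference (log2 fold change 1.34 ± 0.42 SE) and missed the unadjusted threshold (limma adjusted p = 0.151), with 1 probe in the sum on PBS replicate 1 and 2 on the other arrays. It was chosen for mention after its values were seen.

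Another 5 miRNAs called higher have numbers above 1000, that is, they were annotated late and mostly have no known role. miR-4750-5p had the largest fold change of the 221, with normalized signals of 69.0 and 69.0 after PBS and 213 and 288 after trastuzumab (3.59-fold, log2 fold change 1.85 ± 0.19 SE, limma adjusted p = 0.0326). The PBS arrays read alike and both trastuzumab arrays lay above them, and without PBS replicate 2 the call was lost. Only 1 of the 2 probes of miR-4750-5p had a signal above 0 on every array, while 17 of the 18 called miRNAs had more than 1 such probe. Over the 19 alternatives its log2 fold change ran from 0.88 to 2.20, and it was called in 17 of them. miR-3656 read 269.8 and 288 against 569.5 and 631 (2.15-fold, limma adjusted p = 0.0230) and was called whichever array was left out. miR-1268a and miR-1268b, whose sequences stand side by side above, were 2.01-fold and 2.03-fold higher (limma adjusted p = 0.0317 and 0.0498). miR-1268a read 424 and 395 after PBS and 775 and 876 after trastuzumab. miR-4481 read 91.1 and 75.7 against 158 and 281, 2.53-fold higher with a wide spread within the trastuzumab pair (limma adjusted p = 0.119). None of these groups overlapped, but the calls of miR-1268b and miR-4481 were kept only without trastuzumab replicate 1, and that of miR-1268a was lost without PBS replicate 2 and without trastuzumab replicate 2.

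Of the miRNAs called lower, the only one with a number up to 1000 was miR-7-5p, which is known to repress EGFR, a partner receptor of HER2. It read 558 and 631 after PBS and 230.1 and 235 after trastuzumab. The trastuzumab values were close to each other and far below PBS, 2.55-fold lower (log2 fold change -1.35 ± 0.090 SE, limma adjusted p = 0.0200), and the call was kept without any 1 array. Its sum held 2 probes on each PBS array and 1 on each trastuzumab array, and with both everywhere it was 2.21-fold lower and still called (log2 fold change -1.15, limma adjusted p = 0.0239). miR-7-5p can come from 3 hairpins, MIR7-1 inside HNRNPK, MIR7-2 inside AEN and MIR7-3 inside MIR7-3HG. The opposite arm of the first, miR-7-1-3p, read 86.3 and 90.1 after PBS and 60.1 and 52.2 after trastuzumab (log2 fold change -0.65, limma adjusted p = 0.0528), a difference that did not pass the adjusted test.

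miR-1260b fell from 5048 and 4785 normalized units after PBS to 1838 and 2155 after trastuzumab (2.47-fold lower, log2 fold change -1.30 ± 0.11 SE, limma adjusted p = 0.0265). It was the only miRNA called under every one of the 19 alternatives tried. Its relative miR-1260a read 7450 and 6716 against 3721 and 4406 (log2 fold change -0.80, limma adjusted p = 0.0547). Neither miRNA overlapped between the treatments, and miR-1260a was chosen for mention as the close relative of a called miRNA.

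The other 6 miRNAs called lower also have numbers above 1000. miR-1281 had the largest decrease, from 253 and 178 to 67.0 and 86.3 (2.79-fold lower, limma adjusted p = 0.0678), and its call was lost whichever array was left out, as was that of miR-1273g-3p (11894 and 8484 against 4093 and 5738, 2.07-fold lower, limma adjusted p = 0.120). The PBS arrays differed more from each other in these than in the remaining 4. The decreases of miR-6085, miR-5739, miR-3195 and miR-3676-5p were 2.21-fold, 2.19-fold, 2.17-fold and 2.10-fold, with limma adjusted p between 0.0162 and 0.0498. miR-3676-5p (651 and 619 after PBS, 306 and 299 after trastuzumab) and miR-6085 (664 and 651 against 281 and 315) were called without any 1 array. miR-5739 (892 and 794 against 349 and 424) was lost without PBS replicate 1 or trastuzumab replicate 1 and miR-3195 (228 and 216 against 116 and 90.1) was kept only without trastuzumab replicate 1. miR-1281 and miR-3195 had 2 probes in the sum after PBS and 1 after trastuzumab, and with both on every array their log2 fold changes were -0.80 and -0.73.

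**Figure D2:**
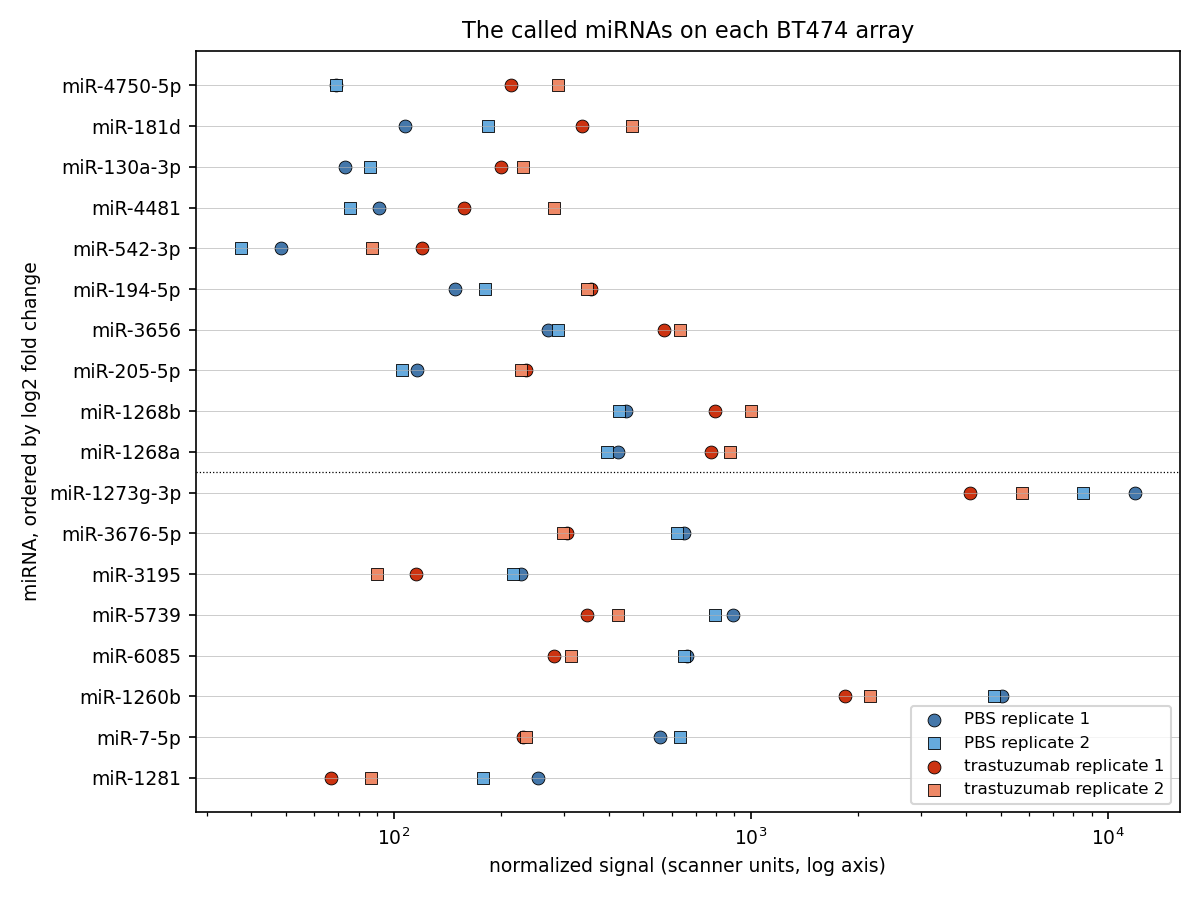
Normalized signals (scanner units, log axis) of the 18 called miRNAs, 1 row each, ordered by log2 fold change. Blue symbols are the PBS arrays and red symbols the trastuzumab arrays, with circles for replicate 1 and squares for replicate 2; above the dotted line the red symbols lie to the right of the blue, and below it to the left, with no overlap in any of the 18.

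Families differed in how their members were placed. The miR-29 family, known for repressing collagens and DNA methyltransferases, lay above 0 in 3 of 3 members with a median log2 fold change of 0.63. miR-29a-3p rose from 1382 and 1467 to 2477 and 2783 (1.84-fold, limma adjusted p = 0.0326), and miR-29c-3p from 3937 and 3937 to 5738 and 6207 (1.52-fold, limma adjusted p = 0.0352). miR-29b-3p read 1701 and 2006 against 2718 and 3021 (log2 fold change 0.63, limma adjusted p = 0.0789). In all 3 members the trastuzumab arrays were above the PBS arrays. The 2 of 3 past the adjusted test, beside 15.7% of all tested, became 0 of 3 without PBS replicate 1 or without PBS replicate 2. miR-29a-3p missed the threshold whichever array was left out (limma adjusted p from 0.0735 to 0.176), and miR-29c-3p passed only without 1 of the trastuzumab arrays.

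In the miR-30 family, which is linked to the differentiated epithelial state, 5 of 5 members lay above 0, with a median of 0.46, and 4 of 5 passed the adjusted test, beside 15.7% of all tested. Without PBS replicate 1 or without PBS replicate 2, 0 of 5 passed, and miR-30b-5p and miR-30d-5p missed the threshold whichever array was left out (limma adjusted p from 0.0653 to 0.135). miR-30a-5p rose the most, from 172 and 169.9 to 315 and 329.8 (1.89-fold, log2 fold change 0.91 ± 0.056 SE, limma adjusted p = 0.0183). With both of its probes on every array, in place of 1 after PBS and 2 after trastuzumab, the log2 fold change was 0.70 (limma adjusted p = 0.0239). The rises of miR-30b-5p, miR-30c-5p and miR-30d-5p were 0.46, 0.43 and 0.48 on the log2 scale (limma adjusted p = 0.0450, 0.0485 and 0.0371), and miR-30e-5p had 0.36 (limma adjusted p = 0.0970). Across 8 ways of scaling the arrays or summarizing the spots, the family median stayed between 0.34 and 0.70 for miR-30 and between 0.55 and 0.93 for miR-29, where the median of all 221 ran from -0.16 to 0.22.

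The miR-23, miR-27 and miR-26 families, listed by name, lay above 0 in 6 of 6 members (family medians 0.32, 0.32 and 0.44), with medians above 0 under all 8 settings, but none of these members had an adjusted p under 0.05. The late-annotated miR-4465, which has the seed of miR-26, lay below 0 at -0.51, and with it the median of that seed was 0.22. The highest was miR-26a-5p, known to repress the histone methyltransferase EZH2, at 1749 and 1838 after PBS and 3021 and 2629 after trastuzumab (log2 fold change 0.65, limma adjusted p = 0.0531). The let-7 family, repressors of RAS genes, had 9 of 9 members detected, none past either rule, and a median of 0.18 that was below 0 (lowest -0.04) under 2 of the 8 settings. The miR-200 family, known to keep the epithelial state by repressing ZEB1 and ZEB2, lay close to 0 in 5 of 5 members, from -0.13 for miR-429 to 0.04 for miR-141-3p, with a median whose sign changed between them.

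The miR-17 seed, miR-18 and miR-19 families, which the MYC-driven miR-17-92 cluster supplies in part, had medians below 0. These were -0.14 for the 5 miR-17 seed members, -0.48 for miR-18a-5p and miR-18b-5p and -0.18 for miR-19a-3p and miR-19b-3p, and no member was called. Of these, miR-93-5p and miR-106b-5p come from a cluster on chromosome 7, and miR-20b-5p and miR-18b-5p from a cluster on chromosome X. miR-18a-5p read 573 and 710.0 after PBS and 428.8 and 457 after trastuzumab (log2 fold change -0.53, limma adjusted p = 0.119). The miR-18 median was below 0 under all 8 settings, and those of the miR-17 and miR-19 families turned above 0 when no normalization between arrays was done.

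The miR-15/16 family, repressors of BCL2 and of cyclins, was split. miR-15b-5p fell slightly, from 12415 and 12290 to 9607 and 9181 (1.32-fold lower, limma adjusted p = 0.0484), with an adjusted p under 0.05 only without trastuzumab replicate 1 when 1 array was left out, while miR-424-5p, with the same seed, read 496 and 543 against 694 and 763 (log2 fold change 0.49, limma adjusted p = 0.0712). The other 4 detected members had log2 fold changes from 0.00 (miR-16-5p) to 0.25 (miR-497-5p).

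**Figure D3:**
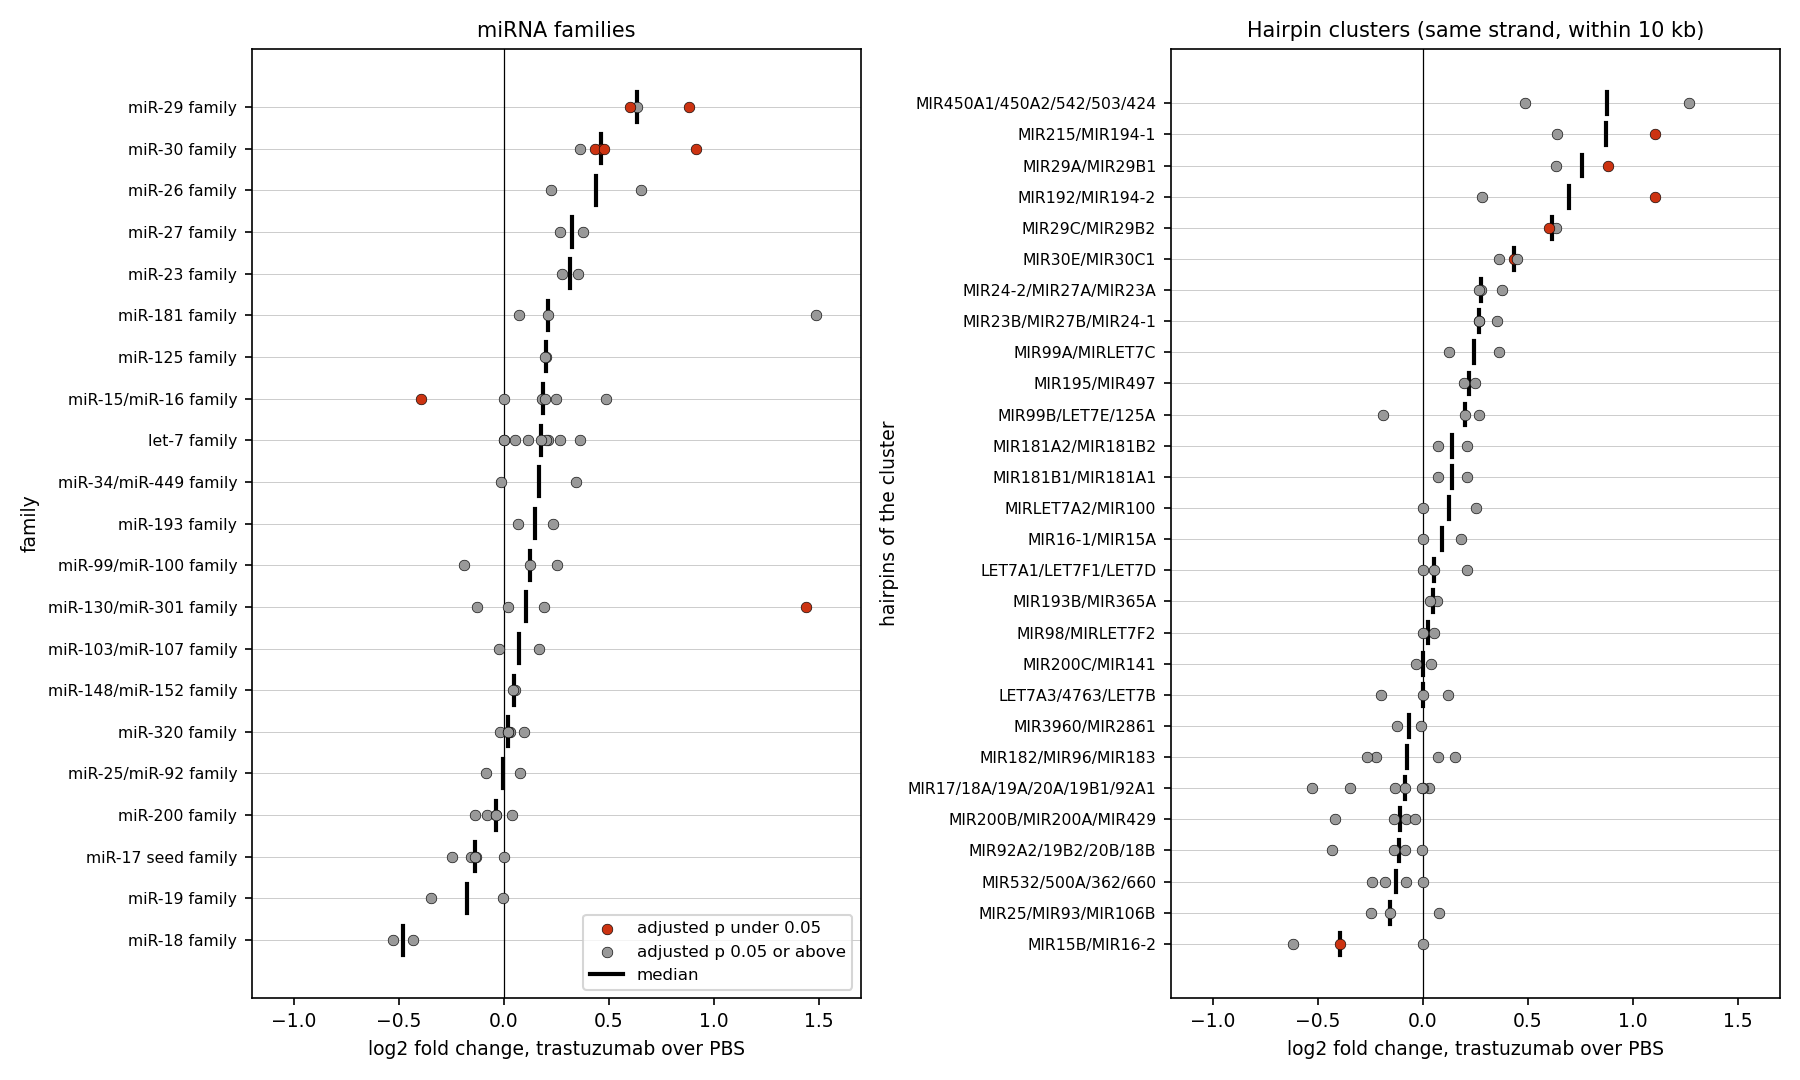
Log2 fold change (trastuzumab over PBS) of each miRNA detected on all 4 BT474 arrays, by family (left) and by cluster of hairpins (right, clusters with 2 or more such miRNAs), with black bars at the medians and red points for adjusted p under 0.05. The miR-29 and miR-30 families stand highest and the miR-18 family lowest among families; among clusters the chromosome X cluster of MIR424 and MIR542 and the MIR194 and MIR29 clusters stand highest, at medians from 0.62 to 0.88.

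By position, 30 clusters of hairpins on 1 strand with gaps of at most 10 kb held 2 or more miRNAs detected on any BT474 array. The cluster MIR450A1, MIR450A2, MIR542, MIR503 and MIR424 on chromosome X (chrX:134540341-134546711, GRCh38.p14, minus strand) gave 5 detected miRNAs. miR-424-5p and miR-542-3p, detected on all 4 arrays, had log2 fold changes of 0.49 and 1.27. miR-450a-5p and miR-503-5p, the latter known together with miR-424 for slowing the cell cycle, were detected on both trastuzumab arrays and on neither PBS array. The remaining arm, miR-542-5p, was detected at 50.6 scanner units on PBS replicate 1, not on PBS replicate 2, and at 51.5 and 102 on the trastuzumab arrays. Before normalization, PBS replicate 1 and trastuzumab replicate 1 thus read nearly alike.

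The neighbours MIR181C and MIR181D (chr19:13874699-13875011, plus strand, inside NANOS3) behaved alike in that miR-181d was called higher and miR-181c-5p was detected only after trastuzumab. The family's other members, miR-181a-5p and miR-181b-5p, come from separate clusters on chromosomes 1 and 9 and had log2 fold changes of 0.21 and 0.07. In the MIR29C and MIR29B2 cluster on chromosome 1, the opposite arm miR-29c-5p was likewise detected only on the trastuzumab arrays. The MIR15B and MIR16-2 cluster inside SMC4 held miR-15b-5p, the shared product miR-16-5p and miR-16-2-3p. The last had a log2 fold change of -0.62 ± 0.60 SE, an error about as large as the difference. In the 6-hairpin cluster of MIR17, 7 miRNAs were detected on all 4 arrays, with log2 fold changes from -0.53 to 0.03 and none called.

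Both arms of a hairpin could be compared in 17 pairs, from which those named here were chosen after their values were seen. The arms of miR-7 lay on the same side of 0, as did those of miR-30e (0.36 and 0.45) and miR-4701 (0.37 and 0.88 for 5p and 3p). The arms of miR-342 lay on opposite sides, at 0.15 for miR-342-5p and -0.44 for miR-342-3p. For miR-21 the 3p arm was at -0.43 and the 5p arm at 0.00. The signal of miR-21-5p was near the top of the scanner range on every array, where a change can be understated. Its 0.00 therefore does not show whether the arms of miR-21 differed.

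Of 10 miRNAs linked to HER family receptors by earlier knowledge, 8 were detected on all 4 arrays, 1 was called higher (miR-205-5p) and 1 lower (miR-7-5p). With 8 members, 2 calls give no more than a description beside the 8.14% called of the 221 and 12.5% of all tested. The other 6 lay between -0.07 (miR-331-3p) and 0.36 (miR-375), with miR-125a-5p and miR-125b-5p, which are known to target ERBB2 and ERBB3, at 0.20 and 0.20. Of 13 miRNAs linked to the oestrogen receptor, 7 were detected, none was called, and their median was 0.07, from -0.53 (miR-18a-5p) to 0.65 (miR-26a-5p). miR-221-3p and miR-222-3p, which are known to repress that receptor, were not detected on any BT474 array.

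miR-210, which hypoxia induces through HIF, fell from 839 and 876 to 538 and 533 (log2 fold change -0.68 ± 0.055 SE, limma adjusted p = 0.0230). miR-425-5p, with its hairpin in DALRD3, fell from 1284 and 1363 to 876 and 892 (log2 fold change -0.58, limma adjusted p = 0.0326). In both, the trastuzumab arrays lay below the PBS arrays by more than the spread within a treatment. When 1 array was left out, miR-210 passed only without 1 of the PBS arrays and miR-425-5p missed the threshold each time (limma adjusted p from 0.0600 to 0.135). In the deposited log2 values the difference of miR-210 was -0.12.

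The muscle-linked miRNAs miR-1 and miR-133b rose. miR-1 read 146 and 171 after PBS and 299 and 306 after trastuzumab (1.91-fold, limma adjusted p = 0.0362), and miR-133b read 111 and 116 against 228 and 216 (1.96-fold, limma adjusted p = 0.0199). Both trastuzumab values exceeded both PBS values in each. When 1 array was left out, miR-133b missed the adjusted threshold each time (limma adjusted p from 0.0638 to 0.0856), and miR-1 passed only without PBS replicate 2. The other 8 stromal or muscle markers, miR-143 and miR-145 among them, were not detected on any BT474 array. miR-126-3p, an endothelial marker, was detected on all arrays but PBS replicate 1, at 51.6 to 88.5 scanner units, and the red cell marker miR-451a on trastuzumab replicate 2 alone, at 57.3. The other endothelial marker, miR-126-5p, and the other red cell markers, miR-144-3p and miR-144-5p, were not detected on any BT474 array. The part of other cells in these results was not tested.

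The remaining miRNAs that passed the adjusted test at under 2-fold were not yet described and are named to complete the 33. miR-374b-5p, whose hairpin lies beside MIR421 in the long noncoding gene FTX, rose from 816 and 892 to 1363 and 1382 (log2 fold change 0.69, limma adjusted p = 0.0326, from 0.0552 to 0.120 when 1 array was left out). miR-937-5p rose from 139.9 and 149 to 261 and 261, miR-769-5p from 70.1 and 72.5 to 103 and 103, and miR-4701-3p had a log2 fold change of 0.88. Lower values were found for miR-4443, miR-1202, miR-4516, miR-6125 and miR-4713-3p, at -0.93, -0.90, -0.60, -0.42 and -0.37 (limma adjusted p from 0.0352 to 0.0498). All 5 of these are annotated late. The adjusted threshold was missed whichever array was left out by miR-769-5p, miR-4701-3p, miR-4443 and miR-6125. miR-937-5p passed only without 1 of the PBS arrays, and miR-1202, miR-4516 and miR-4713-3p only without 1 of the trastuzumab arrays.

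Late-annotated miRNAs leaned lower than the rest. Of the 1164 miRNAs on the array with numbers above 1000, 74 were detected on all 4 arrays, of which 24 lay above 0 and 49 below, with a median of -0.20, against 82 above and 60 below and a median of 0.04 for the 147 with lower numbers. They held 12 of the 18 calls, 5 higher and 7 lower, where 8.14% of the 221 were called, and 15 of the 33 past the adjusted test, 5 higher and 10 lower, where 14.9% passed. The median of the late-annotated group stayed below 0 under all 8 settings (-0.39 to -0.03). They were richer in G and C, with a median GC content of 68.4% against 45.5%, and over the 190 miRNAs with a matched sequence the Spearman correlation of GC content with log2 fold change was -0.23, or -0.12 over the 130 with lower numbers. All of these values come from the same 4 arrays, and the counts and correlations are a description across miRNAs, with no test.

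The 20 miRNAs that were detected under 1 treatment alone were chosen by that pattern, so their values are given without a test. Their summed signals where detected were low, from 27.8 to 247 scanner units, beside lowest detected signals of 22.6 to 26.3 on these arrays. The summed signal is not given where no probe was above 3 times its error, but the probes themselves could still have signals there. Differences are therefore given for the sum over all probes of the miRNA, normalized like the other sums. The log2 difference (trastuzumab minus PBS) ran from -3.02 (miR-466) to -0.34 (miR-1305) over the 11 seen only after PBS, and from 0.20 (miR-940) to 2.00 (miR-2392) over the 9 seen only after trastuzumab, so detection alone does not give the size of a difference. Of the 4 probes of miR-466, 0 had a signal above 0 on all 4 arrays, so its difference depends on probe values at or below 0.

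miR-4728-3p, whose hairpin lies inside ERBB2 on the plus strand (mature sequence at chr17:39726537-39726561), was among those seen only after PBS. It read 166 and 67.7 scanner units on the PBS arrays and was not detected on either trastuzumab array. With both probes summed on every array, the normalized signals were 199.8 and 112 after PBS and 19.6 and 55.5 after trastuzumab, a log2 difference of -2.18 ± 0.68 SE, and its 2 probes, each scaled to the 75th percentile of its array, differed by -2.94 and -2.12. The groups did not overlap, though both pairs of arrays differed widely, and the higher PBS value is that of the file deposited under both lines. The opposite arm, miR-4728-5p, was not detected on any BT474 array. miR-4728-3p was detected on none of the other 3 SKBR3 arrays, and miR-4728-5p on all 3 of them.

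Among the others seen only after PBS, miR-1825, inside POFUT1, read 140.1 and 161 scanner units on the PBS arrays. With all probes summed its normalized signals were 155.4 and 155.4 after PBS and 55.5 and 63.1 after trastuzumab, a log2 difference of -1.39. miR-483-3p (154.6 and 75.9 scanner units after PBS), miR-466 (139 and 74.4), miR-4436b-5p (139 and 65.2) and miR-3149 (126 and 66.5) had differences of -1.71, -3.02, -1.24 and -1.55 over all probes, and in each PBS replicate 1 was the higher array. miR-4290 had -2.32, with 132 and 107 after PBS and 22.6 and 25.4 after trastuzumab. The differences of miR-1305 and miR-629-3p were small, -0.34 and -0.63, and trastuzumab signals of miR-1305 summed over all probes were 88.1 and 84.1 against 112 and 106. miR-182-3p (27.8 and 38.3 scanner units) and miR-877-3p (39.4 and 36.4) were close to the lowest detected signals, and the opposite arm miR-182-5p was detected on all 4 arrays with a log2 fold change of 0.07 and overlapping groups.

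Among the 9 seen only after trastuzumab, miR-2392 (81.0 and 247 scanner units), miR-4472 (104 and 220.5) and miR-499a-5p (127 and 171) were the brightest, with log2 differences over all probes of 2.00, 1.86 and 1.18. The probes of miR-4472, scaled in the same way, went in opposite directions, at -0.50 and 1.53. miR-499a-5p is another miRNA known from muscle, and its normalized signals over all probes were 61.7 and 68.4 after PBS and 149 and 144.6 after trastuzumab. miR-450a-5p of the chromosome X cluster read 61.9 and 124 scanner units (difference over all probes 0.80) and miR-181c-5p 67.0 and 90.3 (1.06). miR-29c-5p, miR-940 and miR-140-5p, a miRNA of cartilage with its hairpin inside WWP2, differed little over all probes, by 0.40, 0.20 and 0.44. Their probes, scaled likewise, gave no common direction, with -0.72 and 0.13 for miR-29c-5p, -0.27 and 0.17 for miR-140-5p, and -0.30 and -0.16 for miR-940, opposite to its detection pattern. miR-503-5p had 1.26, with signals close to the lowest detected. Of the 11 seen only after PBS, 10 were detected on none of the other 3 SKBR3 arrays. Of the 9 seen only after trastuzumab, 3 were detected on none of them, 2 on 1 array and 4 on 2 arrays. miR-2392, miR-4472 and miR-29c-5p were detected on both SKBR3 trastuzumab arrays and not on the PBS array, as in BT474. miR-503-5p was detected on that PBS array alone, and miR-940 on it and on 1 trastuzumab array.

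**Figure D4:**
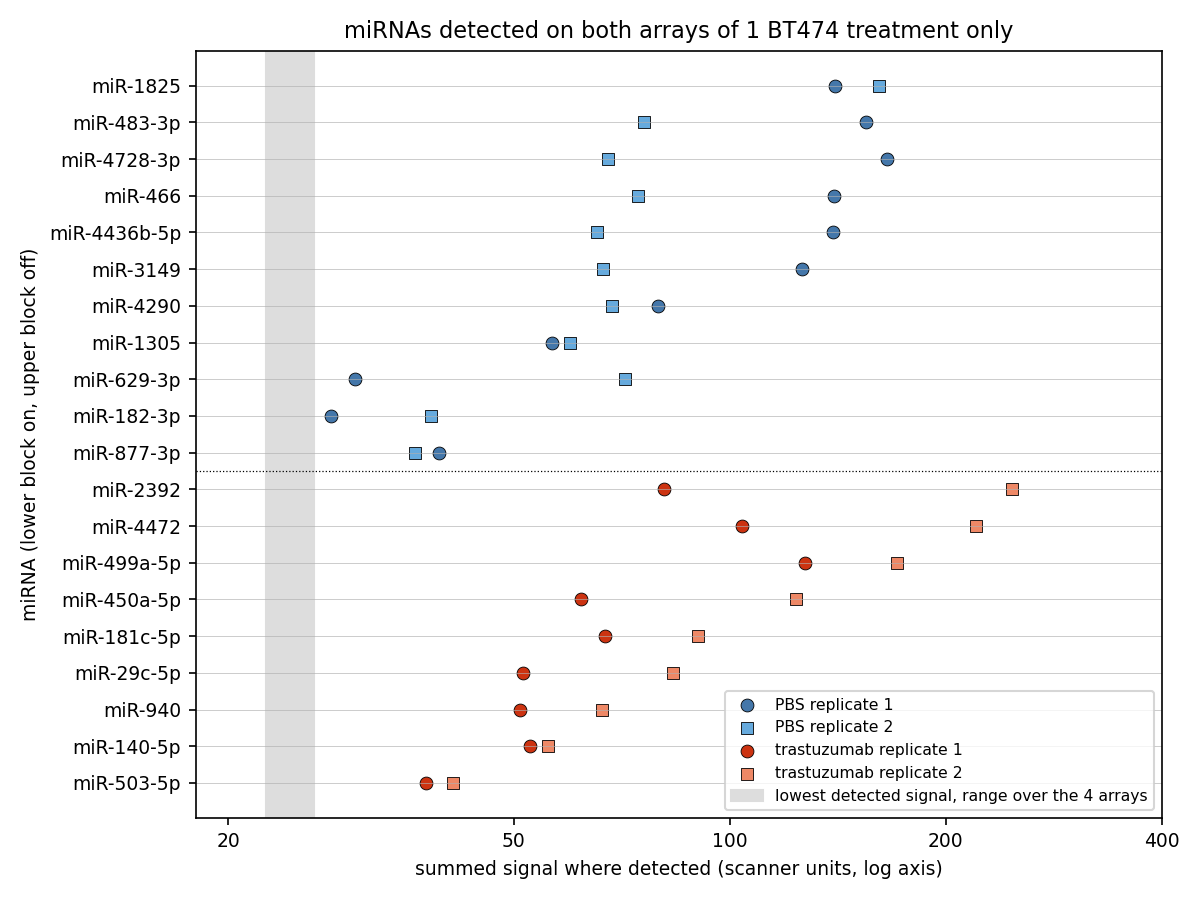
Summed signals (scanner units, log axis) of the 20 miRNAs detected on both arrays of 1 treatment and on neither array of the other, with those seen only after PBS above the dotted line and those seen only after trastuzumab below it. Only detected values are drawn, and the grey band spans the lowest detected signals of the 4 arrays, 22.6 to 26.3; several miRNAs lie close to the band.

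Whether the response differed between BT474 and SKBR3, a HER2-positive line without the oestrogen and progesterone receptors, was tested as an interaction in limma on the 7 distinct arrays, with 1 SKBR3 PBS array that was assumed to vary like the others. The difference had an adjusted p under 0.05 in 32 of the 221 miRNAs, beside 16.1% of the 305 tested. Of these 32, 21 were detected on all 3 SKBR3 arrays, and 7 on none, so that for those 7 the SKBR3 value is the floor and there is no response to compare; miR-205-5p, miR-194-5p, miR-1 and miR-133b are among them. With all 8 labelled arrays, the shared file standing for PBS replicate 1 of both lines, 0 miRNAs passed in limma, 19 at an unadjusted p under 0.05.

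Among the 21, miR-7-5p had log2 fold changes of -1.35 in BT474 and 0.02 in SKBR3 (difference 1.36 ± 0.13 SE, limma adjusted p = 0.00987), and its signals in SKBR3 were 54.0 after PBS and 88.6 and 74.0 after trastuzumab before normalization. miR-130a-3p had 1.66 and -0.02 (difference -1.68, limma adjusted p = 0.0222), and miR-30a-5p 0.99 and -0.11 (difference -1.10, limma adjusted p = 0.00615). miR-424-5p of the chromosome X cluster had 0.49 in BT474 and -0.72 in SKBR3 (difference -1.21, limma adjusted p = 0.0179). With all probes summed, 19 of the 32 and 15 of the 21 still passed, and miR-130a-3p (difference -0.71, limma adjusted p = 0.103) and miR-7-5p (0.98, limma adjusted p = 0.0595) did not. In 9 of the 21 the value was above 0 in BT474 and below 0 in SKBR3, and in 4 the reverse. The 21 were chosen by their difference between the lines, which favours opposite signs. Some of the values counted lay close to 0, as those of miR-130a-3p (-0.02) and miR-7-5p (0.02) in SKBR3 and of miR-148a-3p in BT474 (0.05).

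**Figure D5:**
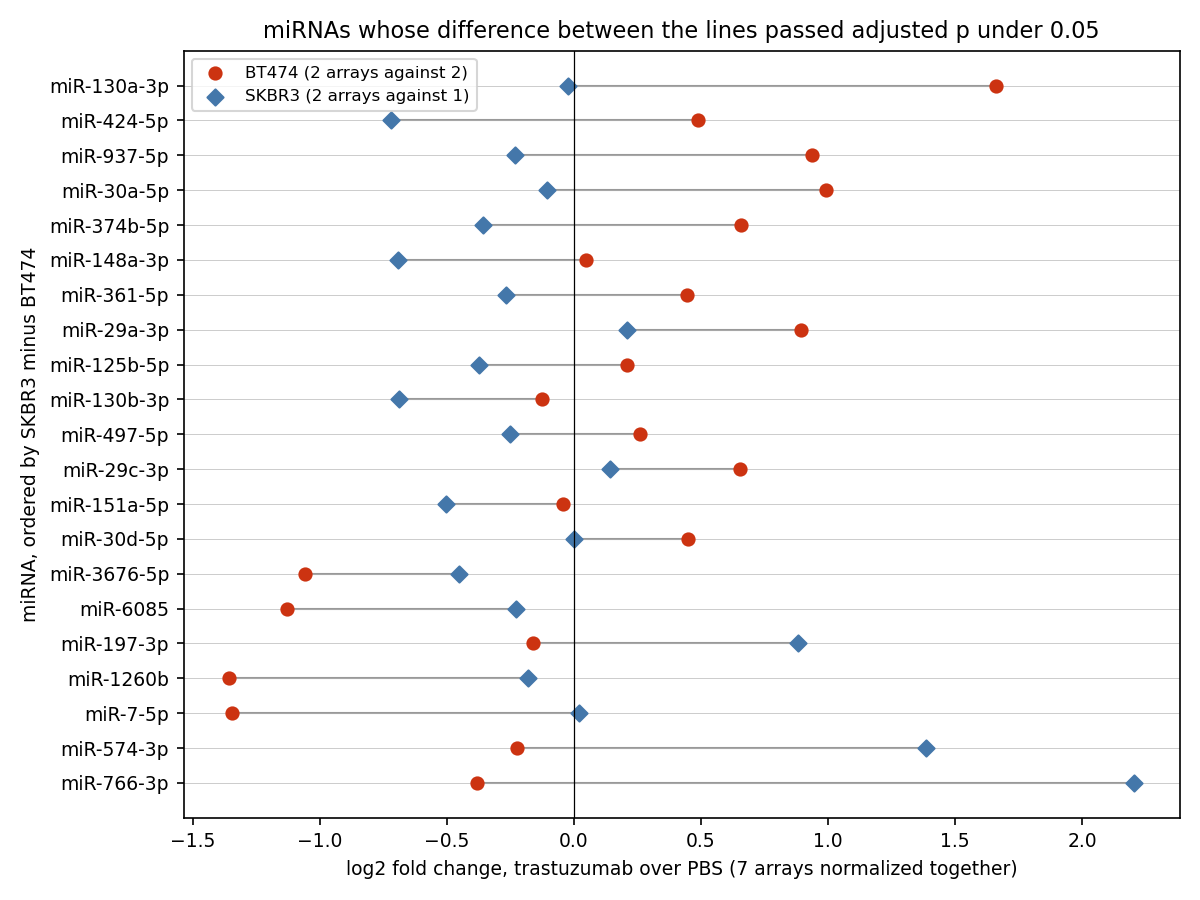
Log2 fold change (trastuzumab over PBS) in BT474 (red circles) and SKBR3 (blue diamonds) for the 21 miRNAs detected on all 4 BT474 and all 3 other SKBR3 arrays whose difference had an adjusted p under 0.05. Values come from 7 arrays normalized together, so those of BT474 are not the same as in the fit of its 4 arrays; miR-130a-3p, at 1.66 and -0.02, heads the plot.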

How the data were processed

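Total RNA of BT474 cells was hybridized by the authors to 1-colour (Cy3) Agilent arrays of human miRNAs (miRBase release 19), and the spots were read with Agilent Feature Extraction 11.5.1.1. Per the file headers, the deposited intensity of each miRNA is the sum over its probes after background subtraction, set to 0.1 where not detected. Tested on the files, a probe entered the sum where its signal was above 3 times its error, which gave every detected sum within 1%. The deposited log2 values, quantile normalized by the authors within a line with a lowest value of log2 of 10, were used as an alternative only.

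Here the summed signals of non-control probes were quantile normalized over the 4 BT474 arrays, then raised to a floor of 10, and compared on the log2 scale with limma 3.58.1 (R 4.3.3) without covariates. Python 3.11.15 with matplotlib 3.10.9, scipy 1.17.1, numpy 2.4.6 and pandas 2.3.3 served for the tables and plots. miRNAs at the floor on every array were left out, and p-values were adjusted over all 287 tested. A call needed a change of over 2-fold with an unadjusted p under 0.05. The number of arrays, 2 per treatment, limits the precision. The test was checked on simulated data for finding planted differences in independent miRNAs. That simulation had no floor, no normalization and no change in the number of probes, so it does not show how the test behaves on these arrays.

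Named miRNAs were the called ones, those seen under 1 treatment alone, both arms of miR-4728, the highest and lowest member of each list, and others to complete a list or cluster. Members and lists were chosen with earlier results of these data known. The miR-25/92 list was corrected after the files were read, since it had taken in a wrong arm, which changed no count of the miRNAs detected on all 4 arrays. Sequences, hairpin positions and host genes are those of RefSeq GRCh38.p14 tables, which give no exons here, and no genome was used. Alternatives were a sum over all probes (chosen after seeing the data), other normalizations, floors, sets of miRNAs in the fit, spot summaries, tests, a replicate block and leaving out each array.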

Additional observations from a re-analysis of the deposited data

Results flagged for a closer look

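For 12 miRNAs that were called or are in the family, locus and role lists, the response to trastuzumab differed between the cell lines by the interaction test in limma (adjusted p under 0.05), among those detected on all 4 BT474 arrays and on all 3 other SKBR3 arrays, a restriction made after the data were seen. Each value is the log2 fold change in SKBR3 minus that in BT474. It was above 0, so that SKBR3 lay higher, for miR-7-5p at 1.36, miR-1260b at 1.18, miR-6085 at 0.90 and miR-3676-5p at 0.61. It was below 0 for miR-130a-3p at -1.68, miR-424-5p at -1.21, miR-30a-5p at -1.10, miR-148a-3p at -0.74, miR-29a-3p at -0.68, miR-125b-5p at -0.58, miR-130b-3p at -0.56 and miR-29c-3p at -0.51. With all probes of each miRNA summed, 10 of the 12 passed, and miR-130a-3p (-0.71, adjusted p = 0.103) and miR-7-5p (0.98, adjusted p = 0.0595) did not. The SKBR3 side rests on 1 PBS array. With all 8 labelled arrays, in which 1 file stands for both lines, 0 of the 221 miRNAs passed this test in limma, and 19 had an unadjusted p under 0.05.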

How the results depend on the processing

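All 18 called miRNAs kept their direction under all 19 alternatives and were called in 10 to 19 of them. Counts moved more. Relative to 10 higher, 8 lower and 33 past the adjusted test, scaling to the 75th percentile gave 5 higher and 14 lower, and no normalization between arrays gave 17 higher, 2 lower and 0 adjusted in limma (36 at an unadjusted p under 0.05). The mean of the processed spots gave 1 higher and 0 adjusted in limma (41 unadjusted), and normexp background correction 0 higher, 2 lower and 55 adjusted in limma (108 unadjusted). The deposited log2 values gave 0 adjusted in limma (33 unadjusted) and called 10 higher and 6 lower, of which 6 and 5 were among the calls above. All 2006 miRNAs in the fit left 8 adjusted, an intensity trend gave 61, and the methods' t-test gave 2 after Benjamini-Hochberg, with 7 higher and 7 lower at the thresholds of the study. The median of the 221 moved by -0.15, 0.22 and -0.16 on the log2 scale under the 75th percentile, no normalization and the processed spots. The sum over all probes, chosen after seeing the data, gave 8 higher, 6 lower and 45 adjusted, and 24 for the difference between the lines. The cause of these shifts was not tested.

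Leaving out 1 array gave 6 to 7 higher, 4 to 9 lower, 6 to 20 adjusted, 12 to 17 miRNAs seen only after PBS and 10 to 19 seen only after trastuzumab, since fewer arrays had to meet the pattern. The former reached 17 without PBS replicate 1 and without trastuzumab replicate 2, and the latter 17 without PBS replicate 2, 19 without trastuzumab replicate 1 and 15 without trastuzumab replicate 2. In the tests a treatment with 1 array left was assumed to vary like the other. The lowest adjusted count, 6, came without PBS replicate 1 and also without PBS replicate 2. The difference between the lines passed in 26 to 49 miRNAs, the latter without BT474 trastuzumab replicate 2, and in 0 with all 8 labelled arrays in limma (19 unadjusted).

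Replicate numbers are shared by the treatments and also follow the slide column, and nothing says that they mark a batch. With the replicate number as a block, 9 miRNAs were called higher, 6 lower and 0 passed the adjusted test in limma (53 unadjusted). The deviations of the replicate 1 arrays from the means of their treatments correlated at 0.24 over the 221 miRNAs. With 2 arrays a treatment, those of the replicate 2 arrays are their mirror image and add nothing.

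With 2 arrays a treatment, signals near the lowest detected values of 22.6 to 26.3 limit the miRNAs seen under 1 treatment alone.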
